A study of Mus musculus with 5 samples.

Results

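The Hox cluster genes are the homeobox transcription factor genes that lie side by side in the Hoxa, Hoxb, Hoxc and Hoxd clusters. Members were the protein-coding genes of GENCODE M21 (mouse build mm10) whose symbol is Hoxa, Hoxb, Hoxc or Hoxd followed by a number, which gave 39 of 21938 protein-coding genes. There were 11 genes in Hoxa, 10 in Hoxb, 9 in Hoxc and 9 in Hoxd. A gene was given a peak of H3K27ac, the histone acetylation found at active promoters and enhancers, when the peak overlapped the gene or lay within 3 kb of one of its transcription start sites (TSSs). H3K27ac had been profiled by CUT&Tag, in which an antibody guides a transposase that tags the neighbouring DNA for sequencing, in Treg cells of the large intestine of C57BL/6 mice aged 2 weeks. Ctrl mice were Foxp3CreSetd2flox/+ and KO mice Foxp3CreSetd2flox/flox, so the libraries of both groups carried the Foxp3-driven Cre with its YFP tag, and Ctrl cells held 1 floxed and 1 normal allele of Setd2, a histone H3 lysine 36 methyltransferase. The Cre acts in cells that express Foxp3, and YFP-positive CD3+CD4+ cells were sorted. The paper describes the Treg cells of such Ctrl mice as having 1 deficient allele of Setd2, so Ctrl cells were not wild type. Each group held 2 libraries, each made from the pooled cells of several mice. The paper states in general that it used males and females, and does not give the sexes in each pool. An IgG control library is listed with the samples. It was not analysed here.

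Hox proteins set the identity of body segments in the embryo. Within a cluster the genes are arranged in the order in which they are used along the head to tail axis, from the group of low numbers to the group of high numbers, and genes with the same number in different clusters are paralogs. In cells that do not use them, the clusters are typically covered by H3K27me3, the methyl mark that Polycomb repressive complexes place on the same lysine that carries the acetyl group of H3K27ac, so both marks cannot sit on 1 histone tail. Some Hox genes are used by early blood progenitors and are turned off as T cells mature.

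H3K27ac peaks were nearly missing from the clusters. Only 5 of the 39 Hox genes (12.8%) were touched by a peak, against 14989 of 21938 (68.3%) of all protein-coding genes. A promoter peak, within 3 kb of a TSS, was present at 4 of 39 (10.3%), against 57.6% of all coding genes. In Hoxa 4 of 11 genes had a peak (Hoxa3, Hoxa4, Hoxa7 and Hoxa13), in Hoxd 1 of 9 (Hoxd3), and in Hoxb 0 of 10 and in Hoxc 0 of 9. The same 5 genes were found when the window was 1 kb. The table lists merged peaks alone, so a gene with no peak is one where no library passed the authors' peak threshold against IgG, and its signal below that threshold is not known.

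The sequences below show the 4 stretches of Hox DNA that did carry a peak, beside promoters of Hox genes that did not, with each CG dinucleotide in capitals, because CG-rich promoters are the kind that both active marks and Polycomb occupy. All are from the reference assembly GRCm38.p6 (mm10), written on the strand of the gene. The central 300 bases of a longer peak are shown, and for Hoxa7 only the 87 bases of the peak outside an annotated untranslated exon. The promoters are the 250 bases before the RefSeq start, from a table that held 22 of the 39 Hox genes. The Hoxa3/Hoxa4 stretch is chr6:52190573-52190872 on the minus strand, in an intron of Hoxa3 and running from the intron into the coding exon of Hoxa4 that follows it. The Hoxa7 stretch is chr6:52221460-52221546 on the minus strand, the Hoxa13 stretch chr6:52261761-52262060 on the minus strand, between genes, and the Hoxd3 stretch chr2:74739983-74740282 on the plus strand, in an intron. The promoters are chr11:96318017-96318266 for Hoxb4 and chr2:74667975-74668224 for Hoxd13, both on the plus strand.
Hoxa3/Hoxa4 peak: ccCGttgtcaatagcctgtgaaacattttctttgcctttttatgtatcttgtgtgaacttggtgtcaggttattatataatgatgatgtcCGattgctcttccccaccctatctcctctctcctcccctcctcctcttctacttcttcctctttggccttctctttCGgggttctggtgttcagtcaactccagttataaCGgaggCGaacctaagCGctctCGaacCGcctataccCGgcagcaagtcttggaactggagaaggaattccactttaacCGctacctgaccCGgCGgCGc
Hoxa7 peak: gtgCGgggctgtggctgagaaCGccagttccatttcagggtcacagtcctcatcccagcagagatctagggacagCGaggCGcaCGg
Hoxa13 peak: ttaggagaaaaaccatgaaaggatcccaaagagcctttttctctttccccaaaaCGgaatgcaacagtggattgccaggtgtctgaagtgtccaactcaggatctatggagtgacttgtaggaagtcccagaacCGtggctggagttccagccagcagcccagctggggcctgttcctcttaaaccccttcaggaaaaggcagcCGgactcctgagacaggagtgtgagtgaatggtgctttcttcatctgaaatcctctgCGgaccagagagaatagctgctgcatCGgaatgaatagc
Hoxd3 peak: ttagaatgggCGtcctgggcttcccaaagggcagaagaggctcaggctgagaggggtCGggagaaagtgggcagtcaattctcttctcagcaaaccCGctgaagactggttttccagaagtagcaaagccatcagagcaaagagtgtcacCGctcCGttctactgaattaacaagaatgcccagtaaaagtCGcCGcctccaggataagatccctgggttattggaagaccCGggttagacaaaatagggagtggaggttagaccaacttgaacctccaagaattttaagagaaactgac
Hoxb4 promoter: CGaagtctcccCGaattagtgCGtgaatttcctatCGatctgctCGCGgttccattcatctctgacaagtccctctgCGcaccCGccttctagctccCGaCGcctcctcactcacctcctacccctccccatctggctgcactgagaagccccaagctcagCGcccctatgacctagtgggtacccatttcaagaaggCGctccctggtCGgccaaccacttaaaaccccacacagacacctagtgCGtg
Hoxd13 promoter: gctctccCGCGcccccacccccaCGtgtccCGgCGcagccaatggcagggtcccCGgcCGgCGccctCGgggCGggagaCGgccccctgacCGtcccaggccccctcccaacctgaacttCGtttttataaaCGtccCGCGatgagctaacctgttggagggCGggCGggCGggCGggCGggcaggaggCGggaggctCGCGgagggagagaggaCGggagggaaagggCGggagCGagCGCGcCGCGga

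Per 100 bases, the printed stretches with a peak held 4.33 CGs (Hoxa3/Hoxa4), 5.75 (Hoxa7), 1.67 (Hoxa13) and 2.67 (Hoxd3). The Hoxb4 promoter, with 5.6, was close to the Hoxa7 stretch, and the Hoxd13 promoter, with 12.4, was the most CG-rich of those shown. These promoters are chosen examples. Hoxb4 held 14 CGs in its 250 bases and Hoxd13 held 31, against a median of 12 over the 22 Hox promoters, of which 27.3% held 20 or more. The peak stretches were placed by the peak and the promoters by the start site, so they are not like for like.

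The Hoxa cluster, on chromosome 6, held the most peaks that touched a Hox gene, 3 against 1 in Hoxd. Within the spans themselves both held 2, since the Hoxa13 peak lies just outside Hoxa and a peak within Hoxd touches no Hox gene. Hoxa spans 105 kb, with the genes on the minus strand and Hoxa13 at the posterior end. Levels are given as CPM, the counts of each library scaled to a common total after the TMM normalization of edgeR.

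The peak shared by Hoxa3 and Hoxa4, chr6:52190551-52190893 (343 bp), lay 0.86 kb from the TSS of Hoxa4 and inside Hoxa3, and so gave its counts to both genes. Hoxa3 and Hoxa4 are anterior members of the cluster. It held 3 and 0 counts in Ctrl 1 and Ctrl 2, and 8 and 1 in KO 1 and KO 2, which is 1.36 and 0 CPM against 2.98 and 0.240 CPM. Each group thus had a library at 1 count or none, and the groups overlapped.

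The Hoxa7 peak, chr6:52221460-52221757 (298 bp), overlapped the far 5′ end of the gene, at an exon of a transcript that the basic annotation leaves out, and lay 2.75 kb from the nearest TSS of the basic annotation. Hoxa7 is a central member of the cluster. Ctrl 1 and Ctrl 2 held 6 and 2 counts there, and KO 1 and KO 2 held 12 and 13. As CPM this was 2.71 and 0.595 in Ctrl (mean 1.65 ± 1.499, SD, n = 2) and 4.47 and 3.11 in KO (mean 3.79 ± 0.959, SD, n = 2). The KO libraries were the 2 highest, by a small margin over Ctrl 1. It was the only Hox peak that reached the minimum for testing, 10 counts in each of 2 libraries or more. It did so through the KO libraries alone, since both Ctrl libraries held fewer than 10 counts. The filter thus favoured a positive fold change, so its direction is no support for a difference. The quasi-likelihood test of edgeR gave a log2 fold change of KO over Ctrl of 1.24 (SE 1.21, unadjusted p = 0.302, adjusted p = 0.998). DESeq2 gave a log2 fold change of 1.24 (unadjusted p = 0.306). Summed as a gene, Hoxa7 passed the minimum through the same KO counts and had a log2 fold change of 1.25 (SE 1.12, unadjusted p = 0.293 with edgeR). The difference did not pass either test, and its size rested on the Ctrl libraries, with a log2 fold change of the peak of 2.58 without Ctrl 1 and 0.46 without Ctrl 2.

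The Hoxa13 peak, chr6:52261747-52262073 (327 bp), lay 0.867 kb upstream of the start of Hoxa13, the most posterior gene of the cluster, and overlapped no annotated gene. Hoxa13 is known for its role in the limb, the urogenital tract and the hindgut. Ctrl 1 and Ctrl 2 held 0 and 1 count, and KO 1 and KO 2 held 13 and 4, which is 0 and 0.298 CPM against 4.84 and 0.958 CPM. The KO libraries lay above the Ctrl libraries, with most of the KO counts in KO 1. The peak was under the minimum for testing.

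The remaining Hoxa genes had no peak. Hoxa2, near the anterior end, lay in a gap of 162 kb between neighbouring peaks, Hoxa5 and Hoxa6 in a gap of 30.6 kb between the Hoxa4 and Hoxa7 peaks, and Hoxa9 and Hoxa10, known from blood progenitors, and Hoxa11, known from the limb, in a gap of 40.0 kb between the Hoxa7 and Hoxa13 peaks.

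In the Hoxd cluster (chr2:74668310-74765142, 96.8 kb) the peak of Hoxd3, chr2:74739941-74740324 (384 bp), lay 0.322 kb from a TSS of the gene. Hoxd3 is an anterior gene of the cluster. Ctrl 1 and Ctrl 2 held 2 and 5 counts (0.905 and 1.49 CPM), and KO 1 and KO 2 held 9 and 0 (3.35 and 0 CPM). The KO libraries were the highest and the lowest of all, so the groups overlapped, and the peak was under the minimum for testing. The posterior genes Hoxd13, Hoxd12, Hoxd11, Hoxd10 and Hoxd9, known from limb development, lay with Hoxd8 and Hoxd4 in a gap of 111 kb with no peak, which also held Evx2, and Hoxd1 lay in a gap of 75.8 kb. Just outside the rule, a further peak in the cluster, chr2:74749354-74750013 (660 bp), lay in the long noncoding RNA gene Haglr, 9.73 kb from the nearest Hox TSS. Ctrl 1 and Ctrl 2 held 18 and 1 counts there and KO 1 and KO 2 held 16 and 10, in all more than any peak that touched a Hox gene, and its log2 fold change was 0.04 (SE 0.84, adjusted p = 0.998 with edgeR).

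The 10 Hoxb genes lay in a single gap of 289 kb between peaks (chr11:96145810-96435267), from Hoxb13 to Hoxb1. The cluster itself spans 174 kb (chr11:96194316-96368256). Of the 124137 gaps between neighbouring peaks, 1.06% were at least as long, and the median gap was 2.84 kb. There were 35 peaks within 200 kb on either side of it, or 8.75 per 100 kb, against 0 inside. Hoxc had 3.25 peaks per 100 kb in its flanks against 0 inside. Hoxa and Hoxd did not have this pattern, with 1.25 and 1.75 peaks per 100 kb in the flanks against 1.90 and 2.07 within the span. A peak at the promoter of Skap1, an adaptor of T cell receptor signalling, lay 94.6 kb beyond Hoxb1 (chr11:96462832-96467639), with 63.8 and 82.1 CPM in Ctrl and 58.9 and 109 CPM in KO. Its 1030 counts compare with 79 for the peaks of all Hox genes together. The Skap1 peak was wide, at 4808 bp, and stood at the 98.8th percentile of all peaks by total count. Scaled by width it had 16.3 CPM per kb, against 9.14 at the Hoxa7 peak and 3.34 to 4.66 at the other Hox peaks.

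The 9 Hoxc genes lay in a gap of 378 kb (chr15:102774944-103152860), from Hoxc13 to Hoxc4, and 0.644% of all gaps were at least as long. The cluster spans 116 kb (chr15:102921103-103036852). In the genome 110 gaps held 9 or more coding genes, a cutoff equal to the number in the Hoxc gap. Of these, 47 held mostly olfactory or vomeronasal receptor genes, which are silent outside sensory neurons, and the Hoxb and Hoxc gaps were the 2 that held Hox genes alone. By number of genes the Hoxb gap ranked 78th and the Hoxc gap 94th, so many gaps held more.

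**Figure D1:**
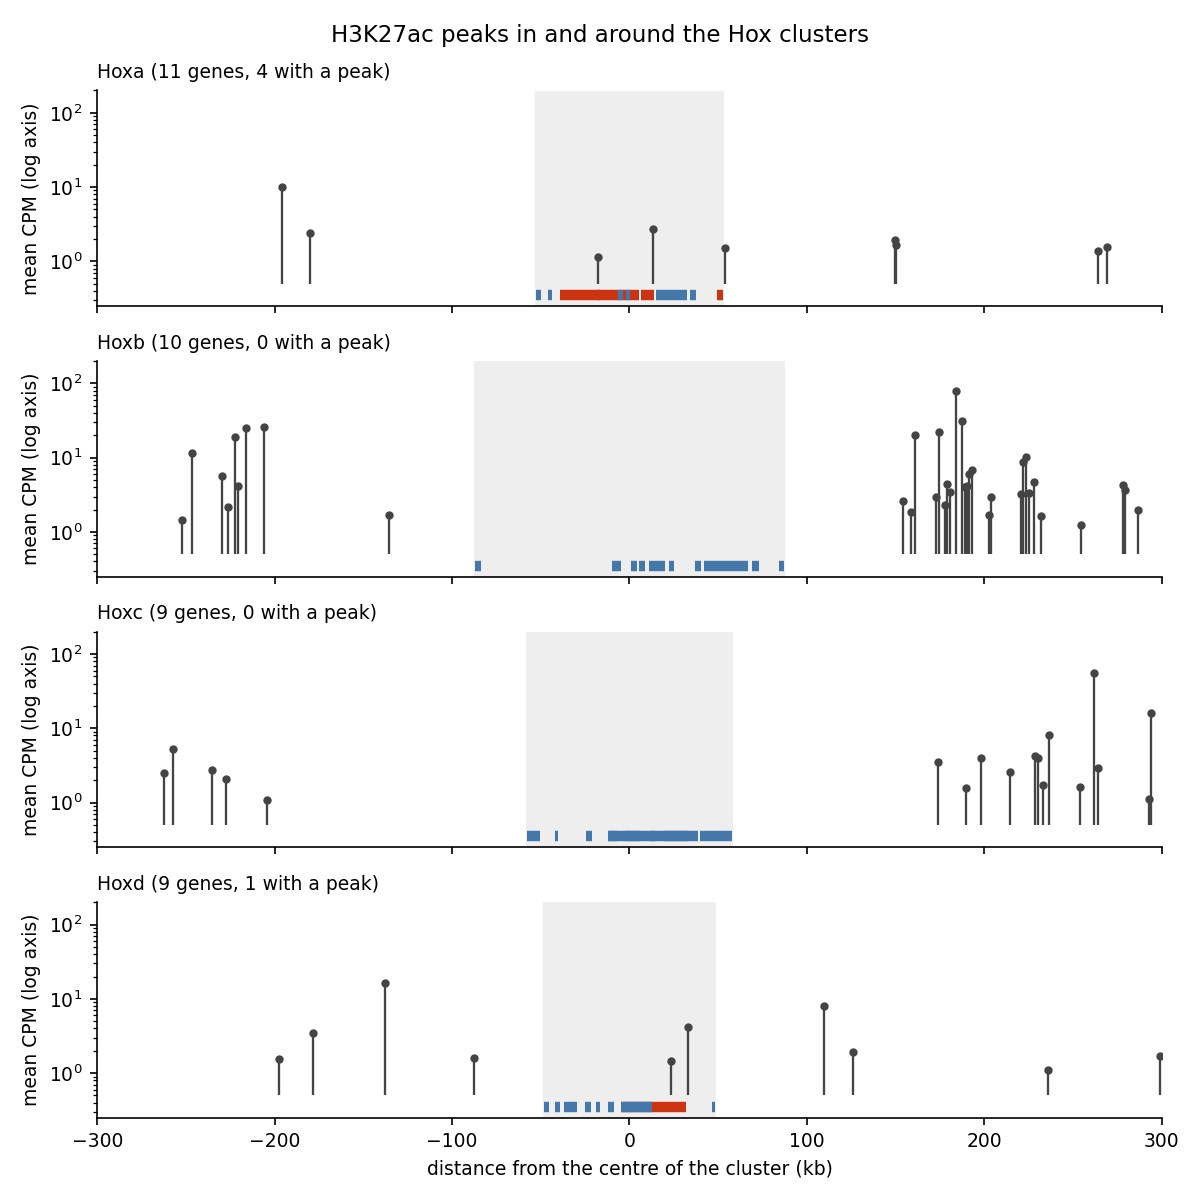
Mean CPM of the 4 libraries (log axis) at each H3K27ac peak against the distance from the centre of each cluster in kb. The grey band is the cluster, bars at the foot are Hox genes (red with a peak, blue with none), and the Hoxb and Hoxc bands hold 0 peaks while the flanks of Hoxb hold 35 within 200 kb.

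Most of the 4 Hox peaks were also weak. Together they held 79 of the 13745366 counts in the table. Their median total was 17 counts, against 42 over all 124158 peaks, and their median width 335 bp against 477 bp. Scaled by width, their median level was 4.20 CPM per kb, against 7.24 CPM per kb over all peaks. The Hoxa7 peak, which had the most counts of the 4, ranked at the 35.9th percentile of all peaks by total count, but by width it stood at 9.14 CPM per kb, above the median of all peaks, while the other 3 lay between 3.34 and 4.66 CPM per kb.

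No Hox peak and no Hox gene was called different between KO and Ctrl. Of the 74550 tested peaks edgeR called 1 (0.00134%) at an adjusted p under 0.05 and none of the 13477 tested genes (0%). At an unadjusted p under 0.05 it counted 3160 peaks (4.24%) and 370 genes (2.75%), with the 1 tested Hox peak and the 1 tested Hox gene in neither count. DESeq2 called 0 peaks and 0 genes, with 1468 peaks and 245 genes at an unadjusted p under 0.05. The libraries of a group are separately pooled samples, so the p-values measure the spread between pools. These fits treat the libraries as unpaired. With the replicate number as a block, edgeR called 152 peaks higher and 59 lower and 429 genes higher and 454 lower.

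At 2 of the 4 Hox peaks, those of Hoxa7 and Hoxa13, the KO libraries were the 2 highest. This was so for 13% of the 44937 peaks of the whole table with a total of 12 to 33 counts, the range of the Hox peaks. The highest of the 4 libraries was KO 1 at 4 of 4 Hox peaks. KO 1 was also the highest library at 41.0% of all peaks with as few counts and at 31.1% of all peaks, while KO 2 was the highest at 8.18% and 18.0%. What part this difference between the libraries has in the Hox values was not tested.

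Summed over the peaks that touch its genes, Hoxa had 4.07 and 0.893 CPM in Ctrl 1 and Ctrl 2 (mean 2.48 ± 2.25, SD, n = 2) and 12.3 and 4.31 CPM in KO 1 and KO 2 (mean 8.30 ± 5.64, SD, n = 2). The log2 ratio of the means was 1.74, and the KO libraries lay above the Ctrl libraries, KO 2 by a small margin over Ctrl 1. Without Ctrl 1 the ratio was 3.21, and without KO 1 it was 0.77. Hoxd had 0.905 and 1.49 CPM in Ctrl and 3.35 and 0 CPM in KO, a difference of the means of 0.480 CPM that was smaller than the SD of KO (2.37 CPM). Without KO 1 that difference was -1.22 CPM, and without KO 2 it was 2.25 CPM. Hoxb and Hoxc had no peak to sum.

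**Figure D2:**
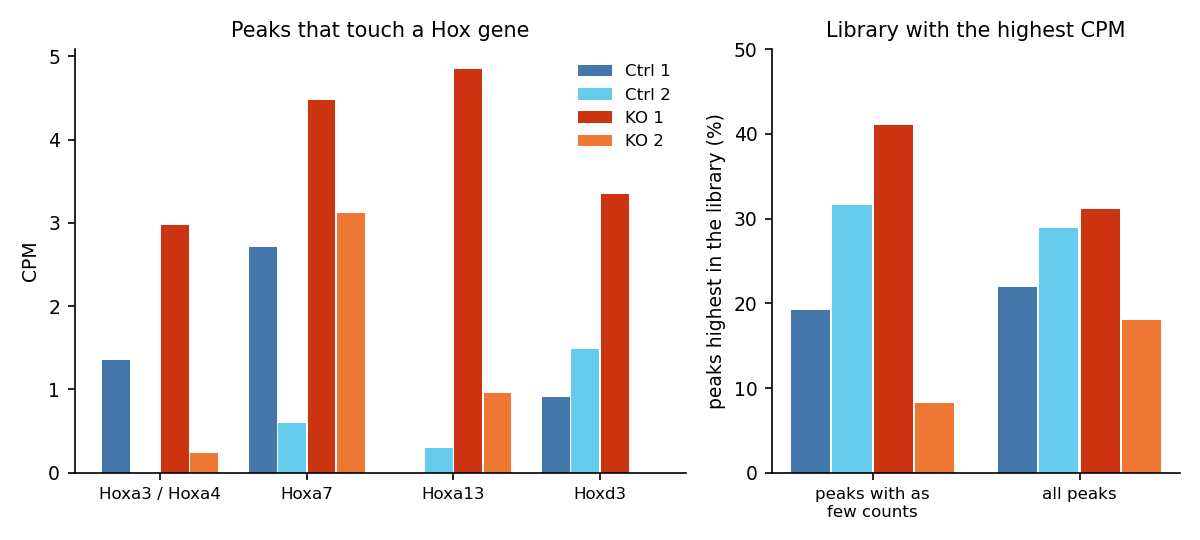
CPM in each library at the 4 peaks that touch a Hox gene (left), and the percent of peaks at which each library was the highest (right), for the 44937 peaks with 12 to 33 counts and for all 124158 peaks. KO 1 was the highest library at each Hox peak, and at 41.0% of the peaks with as few counts.

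Promoters of Hox genes ranged widely in CG density. In windows of 500 bases to either side of each TSS, averaged over the TSSs of a gene, Hox genes had a median of 5.59 CGs per 100 bp (1.85 to 13.3), against 4.20 over all coding genes. The 34 Hox genes with no peak had a median of 5.24, and 9 of them lay below the median of all genes, among them Hoxb3 (1.85), Hoxc4 (2.35) and Hoxd4 (2.75). The ratio of observed to expected CG was 0.6 or more at 25 of the 39 Hox genes, or 64.1%, against 43.9% of all coding genes. By cluster this was 11 of 11 in Hoxa and 6 of 9 in Hoxd. Hoxb with 4 of 10 (40%) and Hoxc with 4 of 9 (44.4%), the clusters with no peak, stood near the share of all genes. Of all 9633 coding genes with such a ratio, 7848 (81.5%) had a promoter peak, and of the 25 Hox genes 3 did (12%).

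Over all genes the share with a promoter peak rose at the low end of CG density and then levelled off. It was 24.0% of coding genes with fewer than 2 CGs per 100 bp, 56.6% at 2 to 4, 77.5% at 4 to 6, and 79.8% to 81.5% above that. Among the 5 Hox genes with 10 or more CGs per 100 bp, Hoxa4 (12.5) and Hoxa13 (13.3) had a promoter peak, and Hoxd8 (10.8), Hoxd11 (11.3) and Hoxd13 (11.8) had none. The peaks of Hoxa4 and Hoxa13 lay 0.86 and 0.867 kb from the TSS, outside the CG window. The promoters of Hoxa7 and Hoxd3 were of middle density (5.76 and 4.03), and the Hoxa7 peak also lay outside the window, 2.75 kb from the TSS. None of the 9 Hox genes with 6 to 8 CGs per 100 bp, among them Hoxa5, Hoxb5, Hoxb7, Hoxc8 and Hoxd9, had a promoter peak, against 81.5% of all genes of that density.

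**Figure D3:**
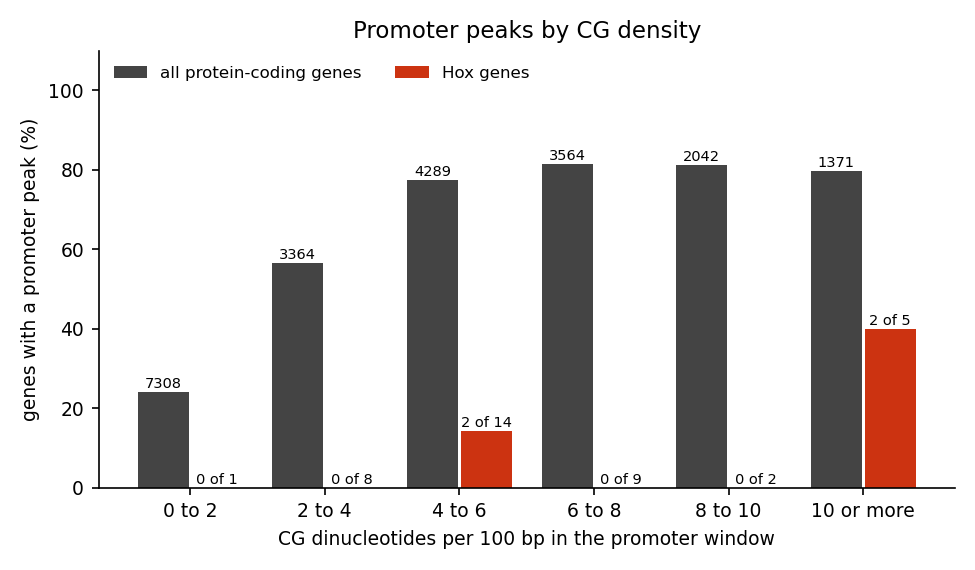
Percent of genes with a promoter peak by CG dinucleotides per 100 bp of the promoter window, for all protein-coding genes (grey, number of genes above the bar) and Hox genes (red, number with a peak of all). The share over all genes rises from 24.0% to 77.5% and then levels off, and Hox genes have 2 of 14 and 2 of 5 in the groups with any.

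Only uniquely mapped reads had been kept by the authors, so signal within repeats can be missed. Soft-masked repeats made up 13.4% of Hoxa, 24.6% of Hoxb, 15.9% of Hoxc and 14.4% of Hoxd, all below the 36.4% of the genome. What part mapping has in the missing peaks was not tested. GC content was 48.9% in Hoxb, the lowest of the clusters, and 41.7% in the genome.

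Of 43 genes within the cluster spans that are not protein-coding, 2 (4.65%) were overlapped by a peak, against 19.2% of 33475 such genes in the genome. Many of the 43 are short, with a median of 214 bp against 899 bp, and of the 17 that were 1 kb or longer the same 2 (11.8%) had a peak, against 31.1% in the genome. The 2 were Haglr in Hoxd and Hoxaas3, an antisense RNA gene that shares the Hoxa3/Hoxa4 peak. Strand does not enter a peak, so Hoxaas3 and the coding genes cannot be told apart there. No peak overlapped Hotair, Hotairm1, Mir10a, Mir10b, Mir196a-1, Mir196a-2, Mir196b or Mir615, all of which are transcribed from within Hox clusters.

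Of 17 genes neighbouring the clusters 14 had a peak, and their levels varied widely. Smug1 and Ttll6, with 19 and 22 counts in all, were within the range of the Hox peaks. The highest were Skap1 with 24 peaks and 164 and 243 CPM in Ctrl and 154 and 236 CPM in KO, Cbx5, which encodes the heterochromatin protein HP1 alpha, with 87.8 and 84.8 CPM in Ctrl and 67.4 and 69.0 CPM in KO, and Hnrnpa1, a splicing factor next to Hoxc, with 70.1 and 50.9 CPM in Ctrl and 53.7 and 57.3 CPM in KO. The 3 neighbours without a peak were Calcoco2 and the homeobox genes Evx1 and Evx2, which sit at the ends of Hoxa and Hoxd. None of the 12 tested neighbours passed an adjusted or an unadjusted p of 0.05 with edgeR or DESeq2.

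The TALE homeobox genes, whose products bind DNA together with Hox proteins, had peaks at 8 of 9 members. Pbx2 had 78.3 and 116 CPM in Ctrl and 76.0 and 170 CPM in KO. Pknox1 had 48.0 and 92.9 CPM in Ctrl and 36.1 and 69.0 CPM in KO, and Pbx4 had 25.3 and 34.2 CPM in Ctrl and 26.8 and 38.3 CPM in KO. Meis3 was the member without a peak. None of the 7 tested TALE genes passed an unadjusted p of 0.05 with edgeR or DESeq2.

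Regulators of Hox chromatin all had peaks, at 16 of 16 genes. These included Kmt2a, the methyltransferase that keeps Hox genes active, and the Polycomb genes Ezh2, Eed and Suz12. The highest were Asxl1 with 225 and 240 CPM in Ctrl and 205 and 228 CPM in KO, and the H3K27 demethylase gene Kdm6b with 141 and 224 CPM in Ctrl and 224 and 299 CPM in KO. Cbx7, a Polycomb subunit that reads H3K27me3, had 114 and 177 CPM in Ctrl and 146 and 250 CPM in KO. Suz12, a core subunit of the complex that writes H3K27me3, had 39.8 and 60.7 CPM in Ctrl and 20.5 and 34.3 CPM in KO, with a log2 fold change of -0.87 (SE 0.35, unadjusted p = 0.0375, adjusted p = 1 with edgeR). It did not pass the adjusted test, and none of the 16 did with edgeR or DESeq2.

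Few other embryonic homeobox genes had a peak. The ParaHox genes (Gsx1, Gsx2, Pdx1, Cdx1, Cdx2 and Cdx4), which descend from the same ancestral cluster and include the intestinal epithelial factors Cdx1 and Cdx2, had a peak at 0 of 6. Of 36 further developmental homeobox genes outside the clusters 9 had a peak (25%), with a promoter peak at 7. The highest, Irx5, had 14.0 and 8.63 CPM in Ctrl and 13.0 and 9.58 CPM in KO, and Pax3, a neural crest and muscle factor, had 11.3 and 6.25 CPM in Ctrl and 12.7 and 5.51 CPM in KO. None of the 5 tested passed an unadjusted p of 0.05 with edgeR or DESeq2.

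**Figure D4:**
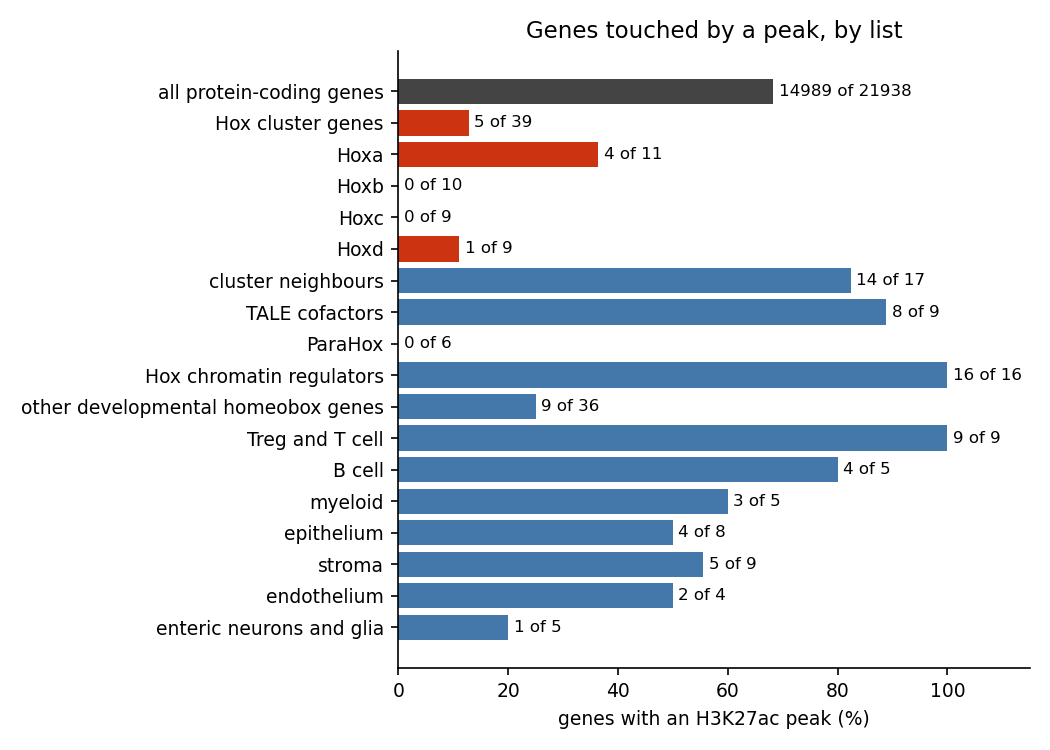
Percent of genes with an H3K27ac peak for all protein-coding genes (grey), the Hox genes and their clusters (red) and comparison lists (blue), with the number of genes beside each bar. Hox cluster genes stand at 5 of 39 and ParaHox genes at 0 of 6, and Hox chromatin regulators and Treg and T cell markers at 16 of 16 and 9 of 9.

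The libraries had the peaks of Treg cells. All 9 Treg and T cell markers had a peak, with a summed level of 3511 to 4778 CPM, and among them Foxp3 had 244 and 294 CPM in Ctrl and 290 and 436 CPM in KO. Ctla4 was the only marker with an unadjusted p under 0.05 (log2 fold change 0.50, adjusted p = 1 with edgeR). Markers of B cells (4 of 5 genes, 181 to 288 CPM), myeloid cells (3 of 5, 117 to 140 CPM), epithelium (4 of 8, 43.4 to 69.3 CPM), stroma (5 of 9, 22.3 to 26.7 CPM), endothelium (2 of 4, 583 to 1080 CPM, nearly all at Pecam1, which T cells can express) and enteric neurons and glia (1 of 5, 11.3 to 17.1 CPM) were lower in their summed levels. The lists differ in their numbers of genes and peaks, so the sums are not like for like. Single genes overlapped between lists. Cd79a of B cells, with most of its list's sum, had 163 and 190 CPM in Ctrl and 152 and 258 CPM in KO. Its mean was above those of Cd3e, Cd3g and Cd4 and below those of the other Treg and T cell markers. Pecam1 had a mean above all of these markers but Ikzf2. Which cells gave these peaks was not tested. The defining markers Ms4a1 of B cells, Lyz2 of macrophages, Lgr5 of epithelium, Col3a1 of stroma, Kdr of endothelium and Sox10 of glia had no peak. Setd2 itself had 51.6 and 84.2 CPM in Ctrl and 45.8 and 65.4 CPM in KO, and counts over the whole gene do not check the deletion of its floxed part. In bulk cells, fewer cells with the mark and less of the mark per cell cannot be told apart. The 4 libraries held 2395002 to 4712473 counts.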

How the data were processed

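Reads were trimmed and mapped to mm10 by the authors with Bowtie2. Multiply mapped and duplicate reads were removed. MACS2 peaks, called with IgG as control, were merged over libraries and counted with bedtools. The deposited table holds these raw counts for every merged peak. Tool versions were not given in the sources used here. Because the peaks came from the same libraries, the set depends on their signal. Peaks were assigned to each protein-coding gene of GENCODE M21 basic that they overlapped or whose TSS lay within 3 kb, so a peak can count for several genes. Peaks, and genes with summed counts, of at least 10 counts in at least 2 libraries were tested over the whole table with edgeR 4.0.16 on R 4.3.3 (quasi-likelihood fit, TMM, no covariate, Benjamini-Hochberg adjustment, threshold 0.05). DESeq2 1.42.0 was the alternative tool. SEs were derived from the fold change and the F statistic. The code was tested on simulated counts. Library totals lay between 2395002 and 4712473, and counts of under 20 per peak carry a wide counting error. The Hox genes and comparison lists were chosen with earlier results of these data known. Named with values were Hox genes and peaks with counts, and of the other lists mainly the 3 genes with the highest mean CPM and those with an unadjusted p under 0.05. The IgG library was not analysed here. Values of some single genes are not reported here.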

Additional observations from a re-analysis of the deposited data

How the results depend on the processing

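The count of Hox genes with a peak was 5 with a window of 1 kb and with the comprehensive annotation, an alternative chosen after seeing the data, and 1 when only tested peaks were used. No Hox peak or gene was called under the alternatives that tested one: DESeq2, its size factors in edgeR, library size from total counts, an offset fitted by loess, no count minimum, a robust fit, a replicate block, leaving out either Ctrl library, other windows or 1 gene per peak. Without KO 1, without KO 2 and at a minimum of 50 counts, no Hox peak or gene was tested. The Hoxa7 peak ranged from a log2 fold change of 0.46 without Ctrl 2 to 2.58 without Ctrl 1. The log2 ratio of the Hoxa total ranged from 0.77 to 3.21 when each library was left out, with the highest value without Ctrl 1. The Hoxd difference ranged from -1.22 CPM without KO 1 to 2.25 CPM without KO 2, so its direction rests on the KO libraries. The other alternatives moved both totals by less than the spread between replicates.

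The labels number the libraries of each group, and nothing in them pairs the numbers. The paper describes the pooled mice as littermates but does not say which pools shared a litter, so a pairing is not known. Deviations of Ctrl 1 and KO 1 from their group means correlated at r = 0.25 over tested peaks. With the replicate number as a block (replicate block), edgeR called 152 peaks higher and 59 lower and 429 genes higher and 454 lower. Of these 0 were Hox, and the Hoxa7 peak had a log2 fold change of 1.41. With so few libraries that fit leaves little from which to estimate the spread.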
